A study of Mus musculus with 8 samples.

Results

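The change in translational efficiency between Miwi-null and wild-type (WT) mouse testes was followed gene by gene, as the interaction of genotype with assay. It used 8 of the 8 libraries of the series, and each gene was represented by the transcript with the highest mean fragment count. Whole testes of C57BL/6 mice at postnatal day 24 were the source of total RNA libraries and of footprint libraries, RPF, which hold the mRNA stretches that a ribosome shields from nuclease. The mice were WT or null for Miwi, the PIWI protein encoded by Piwil1. The 4 groups, WT RNA, null RNA, WT RPF and null RPF, had 2 libraries each. The labels name no animals, so p-values reflect only how far libraries of a group lie apart, which may be technical, and they do not say how the null allele was made.

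Translational efficiency (TE) is the amount of footprint a transcript yields for its amount of RNA, and it stands for how heavily ribosomes load that mRNA. In the testis the relation is unusually loose, because spermatids compact their chromatin, stop transcription and live on mRNAs that were made earlier and held in ribonucleoprotein particles. Protamine, transition protein and tail protein mRNAs are the textbook cases of such delayed translation. MIWI partners with piRNAs in spermatocytes and round spermatids, and mice without it arrest as round spermatids.

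Values per library are CPM, counts scaled to a common library size, on TMM-scaled library sizes. Changes are null against WT on the log2 scale with the standard error (SE) of the edgeR quasi-likelihood fit, and calls were made under a Benjamini-Hochberg adjusted p of 0.05. The TE change is the RPF change minus the RNA change of the same fit, so the 3 share their libraries. Total gene counts ran from 11130955 to 28334620 per library. The labels give mean insert lengths of 266 and 244.5 nt for WT RNA, 287.6 and 284 nt for null RNA and 28.5 nt for every RPF library, so insert length moved with genotype in RNA, and its part in the results was not tested. Whole testis mixes cell types, so fewer cells of a type and less RNA per cell cannot be told apart. Markers of spermatogonia, Sertoli, Leydig, myoid, immune and blood cells were all detected in every library among the members tested.

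Piwil1 checked the labels. It had 552 and 533 CPM in WT RNA, 3.52 and 2.27 in null RNA, 482 and 390 in WT RPF and 3.30 and 3.26 in null RPF. RNA (-7.53 ± 0.20) and footprints (-7.05 ± 0.19) were lost together, and its TE change of 0.48 ± 0.27 was not called (adjusted p = 0.261).

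TE changed for 2394 of 16051 genes tested, and fell and rose for nearly equal numbers. It was lower in null testes for 1214 genes (7.56%) and higher for 1180 (7.35%). Of the lower genes 149 changed more than 4-fold, against 40 of the higher genes. RNA was called lower for 3343 genes (20.8%) and higher for 2641 (16.5%), whatever their other calls. Footprints were called lower for 2142 (13.3%) and higher for 1931 (12%). The balance of directions depends on scaling: 49.3% of TE calls were higher with TMM over all libraries, 39.0% with TMM within each assay (1448 lower, 925 higher) and 29.2% without TMM (1648 lower, 679 higher). The RNA split turned with scaling as well, to 2863 lower and 3038 higher with TMM within each assay and 2561 and 3143 without TMM. Without TMM the median TE change of all genes moved by -0.142 from 0.043. The count of calls rests on the RNA pairs. Leaving out WT RNA replicate 1 gave 376 lower and 266 higher, and leaving out its replicate 2 gave 559 and 421. Leaving out null RNA replicate 1 gave 396 and 226, and leaving out its replicate 2 gave 407 and 246. Leaving out WT RPF replicate 2 gave 1726 and 1909, and leaving out null RPF replicate 2 gave 971 and 689.

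Each TE call was sorted by what carried it, in classes that exclude each other. A footprint-carried gene had its footprints called in the direction of TE with RNA changed less than 1.5-fold. An RNA-carried gene had its RNA called against the direction of TE with footprints changed less than 1.5-fold. There were 563 RNA-carried lower genes (3.51%) and 750 higher ones (4.67%). Footprints carried 322 lower (2.01%) and 289 higher (1.8%). The other classes hold genes outside those bounds, with both assays called and changed at least 1.5-fold. Where both went in the direction of TE (concordant), 211 genes were lower (1.31%) and 19 higher (0.118%). In 23 lower (0.143%) and 14 higher genes (0.0872%) footprints went with TE and RNA against it (opposed). Both went against the direction of TE (attenuated) in 50 lower (0.312%) and 43 higher genes (0.268%), and 45 and 65 genes met none of these definitions. A tighter bound on the smaller change left 194 lower and 182 higher footprint-carried genes. When null RNA replicate 1 was left out the RNA-carried higher genes numbered 161 and the footprint-carried higher ones 34, and without WT RNA replicate 1 the RNA-carried lower genes numbered 112 and the footprint-carried lower ones 101. Concordant lower genes then outnumbered RNA-carried lower ones, 125 against 112 without WT RNA replicate 1 and 124 against 119 without null RNA replicate 1. RNA-carried lower genes outnumbered higher ones without TMM (841 against 430), with TMM within each assay (717 against 588), after removal of the length trend (623 against 575) and without null RPF replicate 2 (447 against 431).

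**Figure D1:**
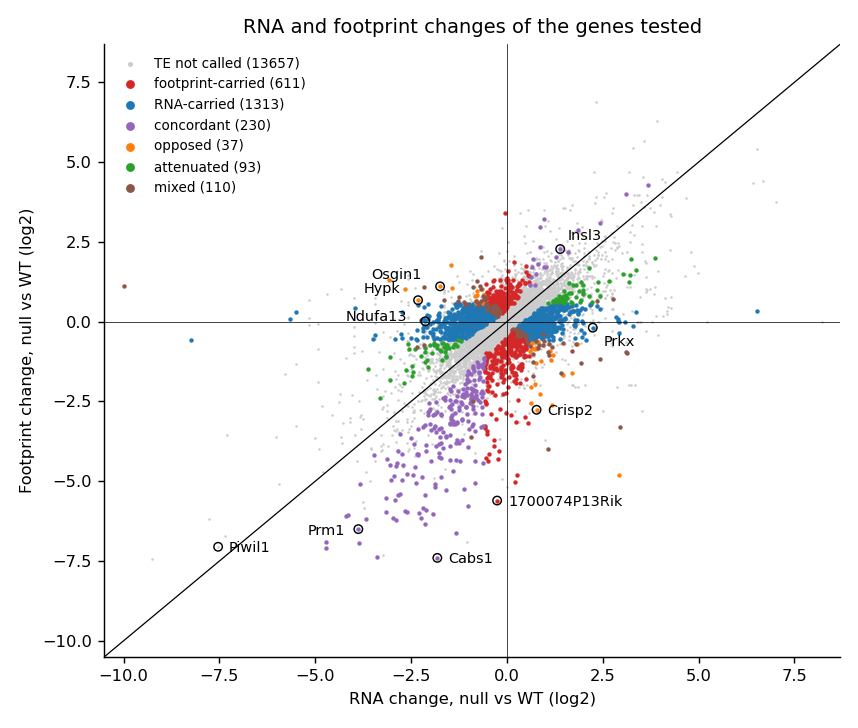
RNA change (x, log2) against footprint change (y, log2), null versus WT, for the 16051 genes tested, 1 point a gene, coloured by class with the number of genes in brackets. On the diagonal the TE change is 0: Piwil1 sits beside it at -7.53 and -7.05, Cabs1 far below it at -1.82 and -7.401, and RNA-carried genes form a horizontal band because the class bounds their footprint change.

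**Figure D2:**
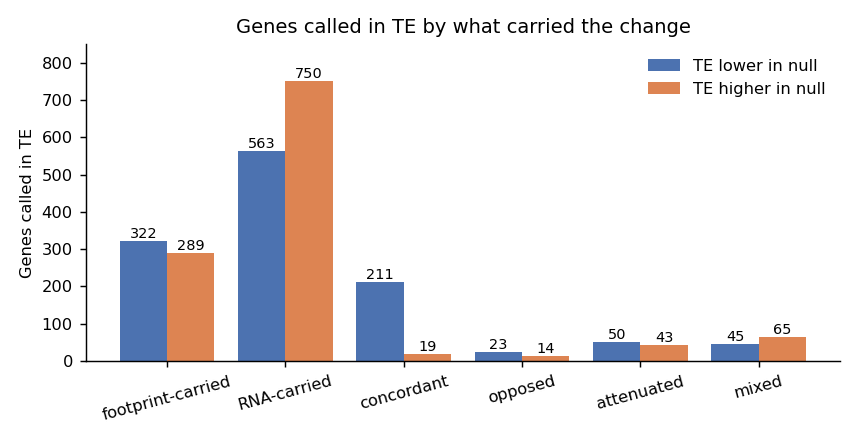
Number of genes called in TE (y) in each class (x), lower (blue) or higher (orange) in null testes. In this fit RNA-carried genes have the tallest bars (563 and 750), though concordant lower genes outnumber RNA-carried lower ones without WT RNA replicate 1 (125 against 112) or null RNA replicate 1 (124 against 119), and concordant genes are 211 lower against 19 higher.

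In the footprint-carried losses named here, footprints were far lower in null testes while RNA changed by less than 1.5-fold, a fall that was called for Cypt1 and Tex13a. The gene with the largest loss by the naming rule, 1700074P13Rik (chromosome 6, 40920437 to 40941041, GRCm38), had 158 and 178 CPM in WT RNA and 145 and 138 in null RNA. Its footprints were at 70.6 and 51.5 CPM in WT and 1.251 and 1.248 in null, resting on 14 and 36 counts. The RNA values lay close together while the footprint groups lay far apart, and TE fell by 5.35 ± 0.26 (edgeR adjusted p = 3.74e-05). The ratio of mean RPF to mean RNA CPM went from 0.362 to 0.00886. The authors' deposited table gives log2 TE changes of -6.12 and -4.69 for its replicates 1 and 2.

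Galntl5, a relative of the enzymes that start mucin-type glycosylation, had 175 and 199 CPM in WT RNA, 164 and 163 in null RNA, 69.7 and 93.4 in WT RPF and 5.63 and 4.40 in null RPF. TE fell by 3.86 ± 0.24. Cypt1, an X-linked gene of the perinuclear theca that wraps the sperm nucleus, had 83.7 and 103 CPM in WT RNA, 70.5 and 64.7 in null RNA, 217 and 201 in WT RPF and 11.2 and 12.4 in null RPF. The RNA change was -0.47 ± 0.12 (adjusted p = 0.0187) and TE fell by 3.67 ± 0.18. Pgk2, the phosphoglycerate kinase that sperm use for glycolysis and a classic stored mRNA, had 476 and 518 CPM in WT RNA, 410.4 and 412 in null RNA, 137 and 142 in WT RPF and 18.8 and 15.1 in null RPF. In all of these the footprint groups did not overlap. The TE of Pgk2 fell by 2.78 ± 0.16 (adjusted p = 7.82e-05), and its RNA change of -0.27 ± 0.11 was not called.

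Others of this class were X-linked. For 4933400A11Rik TE fell by 5.07 ± 0.25, from 11.5 and 12.9 CPM of footprints to 0.447 and 0.416, with RNA at 12.16 and 12.96 in WT and 14.3 and 15.6 in null. Gm5941 fell by 4.09 ± 0.28. Tex13a fell by 3.89 ± 0.34 on 2 and 10 counts in null RPF, with RNA at 48.2 and 42.4 CPM in WT and 32.9 and 32.1 in null, an RNA fall of 0.48 ± 0.15 (adjusted p = 0.0361). TE calls of these 7 genes held in each of the 18 alternatives run, with adjusted p-values of at most 0.00692. Over the whole class the median TE change was -0.95 and 136 of the 322 genes fell more than 2-fold.

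**Figure D3:**
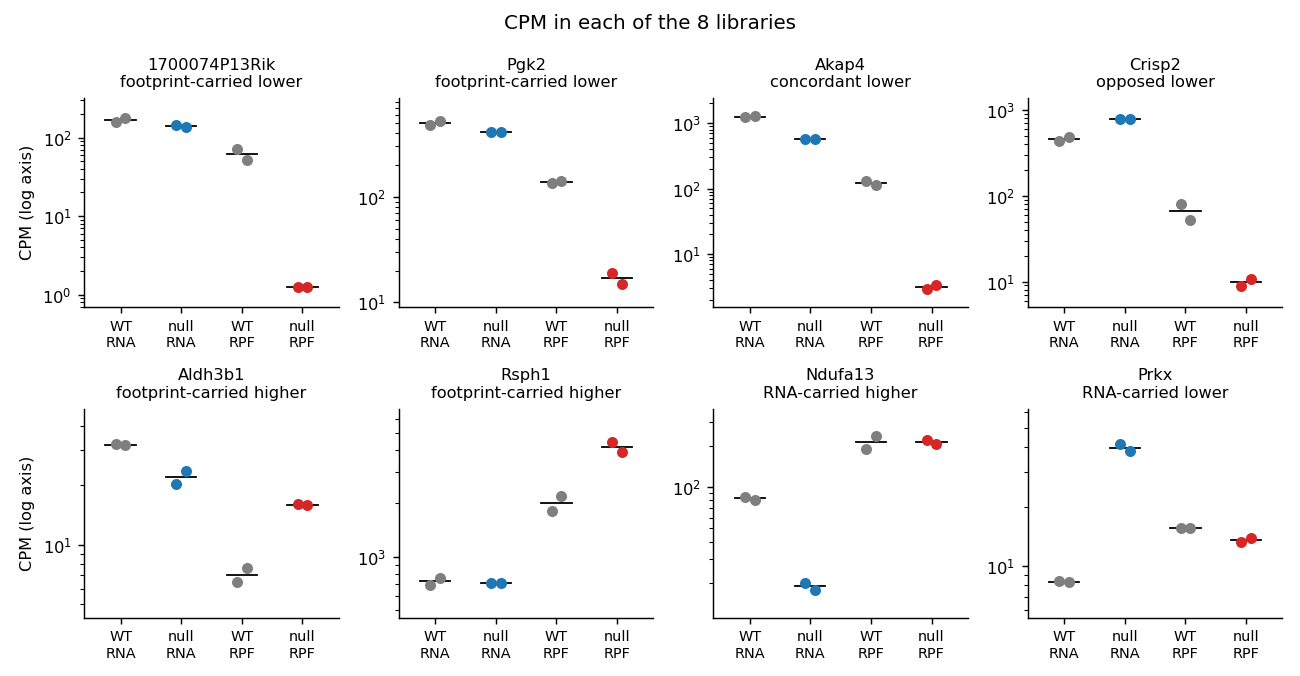
CPM (y, log axis) of 8 genes in the 2 libraries of each group (points, with the group mean as a bar). The null RPF points of 1700074P13Rik, Pgk2, Akap4 and Crisp2 lie below all others of their gene, those of Rsph1 and Aldh3b1 lie above WT RPF, and for Ndufa13 and Prkx the RNA points differ between genotypes while the RPF points lie close together.

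The testis ADAM proteases were the list with most footprint-carried members. These membrane proteins, fertilin and its relatives, sit on the sperm surface and are needed for migration through the oviduct and binding to the egg. TE fell for 17 of 20 tested members, against 7.56% of all genes, and rose for 0, with a median TE change of -0.94 against 0.04 over all genes tested. Footprints carried 11 of the 17, RNA carried 3, 2 were opposed and 1 met no definition. The median RNA change was 0.35 and the median footprint change -0.65. RNA was called higher for 10 of the 20 and lower for 1, against 16.5% and 20.8% of all genes. Footprints were called lower for 14 and higher for 0, against 13.3% and 12%. A footprint-carried gene can still have more RNA in null testes, up to the 1.5-fold bound. Adam25 had 30.02 and 31.3 CPM in WT RNA and 40.3 and 40.02 in null RNA against 23.4 and 27.4 in WT RPF and 9.56 and 9.43 in null RPF. RNA was thus higher and RPF lower in null with no overlap, and TE fell by 1.80 ± 0.17 (adjusted p = 0.000577). Adam39 was opposed: RNA rose by 1.13 ± 0.13, footprints fell by 0.91 ± 0.13 and TE fell by 2.04 ± 0.18. The count was 7 without WT RNA replicate 1 or either null RNA library and 12 without WT RNA replicate 2, and it was 19 lower and 0 higher without TMM. Several ADAM genes are close copies of each other, and how multiply mapping fragments were treated is not given in the sources used here.

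Concordant losses held the mRNAs best known for delayed translation. Their RNA fell and their footprints fell further, so that TE fell as well. Cabs1, a calcium-binding protein of elongating spermatids, had 214 and 230.1 CPM in WT RNA, 61.7 and 64.6 in null RNA, 448 and 373 in WT RPF and 2.41 and 2.43 in null RPF. Neither assay overlapped between genotypes. RNA fell by 1.82 ± 0.11, footprints fell by 7.401 ± 0.15 and TE by 5.59 ± 0.18 (adjusted p = 8.13e-06).

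Akap4, which anchors protein kinase A in the fibrous sheath of the tail, had 1248 and 1282 CPM in WT RNA, 579 and 577 in null RNA, 129.8 and 113 in WT RPF and 2.95 and 3.398 in null RPF. Its RPF to RNA ratio went from 0.0959 to 0.00549 and TE fell by 4.10 ± 0.16. Odf1, an outer dense fibre protein, had 1189 and 1088 CPM in WT RNA, 303 and 299.7 in null RNA, 404 and 485 in WT RPF and 7.86 and 6.17 in null RPF, and TE fell by 4.10 ± 0.19. In both genes WT and null values were apart in RNA and farther apart in footprints. 1700009N14Rik (-4.77 ± 0.38) and Actrt1, an actin-related protein of the sperm head (-4.23 ± 0.33), were the next named. Pfn5 had 175 and 91 footprint counts in WT against 0 and 2 in null, and no fold is given for it.

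Of the 21 stored spermatid mRNAs tested, TE fell for 15 and rose for 0, against 7.56% and 7.35% of all genes. Of the 15, 14 were concordant lower, as were 1.31% of all genes, and Pgk2 was footprint-carried. The medians of the 21 were -1.89 for TE, -1.89 for RNA and -4.0 for footprints, against 0.04 for TE over all genes. Prm1, the protamine that packs sperm DNA, had 2435 and 2569 CPM in WT RNA and 169.8 and 171 in null RNA, and 492 and 433 in WT RPF and 4.64 and 5.41 in null RPF. Most of its loss was thus RNA (-3.88 ± 0.11), and TE fell by a further 2.62 ± 0.15. Tnp2, a transition protein, lost RNA by -4.72 ± 0.12 and TE by -2.35 ± 0.15. The members not called in TE were Cylc2 (-1.29), Spert (-0.53), Gapdhs (-0.46), Prm3 (-0.45), Ldhc (-0.29) and Spem1 (-0.28). Leaving out any single library gave 14 to 16 lower and 0 higher. The summed level of the list, which also marks round and elongating spermatids, ran from 23920 to 24160 CPM in WT RNA and from 6652 to 6654 in null RNA, with no member at 0 counts in any library. Its summed footprints ran from 19970 to 20420 CPM in WT RPF and from 9904 to 10290 in null RPF. The sum thus fell less in footprints than in RNA, unlike the medians of the members. The RNA level of the list moved with the result, and its part in the TE change was not tested.

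In the spermatid lists of this and the next paragraph more members fell than rose in TE, against 7.56% and 7.35% of all genes. Some share members with the stored mRNAs and count those genes again. The chromatin packaging list also holds Prm1, Prm2, Prm3, Tnp1 and Tnp2. The CREM list also holds Hspa1l, Ace, Pgk2, Odf1, Tnp1 and Prm1, and the tail list Odf1, Akap3, Akap4, Oaz3 and Smcp. Among chromatin packaging genes TE fell for 9 of 19 and rose for 1, the testis linker histone gene Hist1h1t, whose TE rose by 0.86 ± 0.13. Among testis kinases and serine proteases it fell for 12 of 24 and rose for 0. The kinases and proteases included Prss58, with 58.6 and 37.6 CPM in WT RPF and 0.715 and 0.659 in null RPF and a TE fall of 3.91 ± 0.36, and Prss37, needed for sperm migration, with a fall of 2.47 ± 0.13. Without WT RNA replicate 1 or either null RNA library 6 of that list were called lower, against 12. Among regulators and targets of CREM, the transcription factor that drives the round spermatid program, TE fell for 12 of 25 and rose for 4, and the higher count was 1 when any 1 RNA library was left out and 2 without TMM. Dnajb8, a spermatid chaperone, fell by 3.68 ± 0.26 and its relative Dnajb7 by 2.31 ± 0.29.

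Among sperm tail sheath and fibre genes TE fell for 8 of 22 and rose for 3, and at most 1 was called higher when any library other than WT RPF replicate 2 was left out, or without TMM. Acrosome and sperm-egg fusion genes had 8 of 31 lower and 0 higher, led by Sppl2c (-1.77 ± 0.15), a protease of the signal peptide peptidase family, and by the hyaluronidase gene Hyal5 (-1.57 ± 0.24), which was opposed. That count was 2 without WT RNA replicate 1 or null RNA replicate 2 and 3 without either of the other RNA libraries. It was 13 without TMM or after removal of the length trend, and 14, with 2 higher, without WT RPF replicate 2. CatSper and sperm ion transport genes had 5 of 19 lower and 0 higher, and RNA carried 3 of the 5. Unlike in the stored mRNAs, RNA was called higher for 8 members and lower for 2, against 16.5% and 20.8% of all genes. Their median footprint change was 0.02. Atp1a4, the sperm sodium pump, lost RNA and footprints and its TE fell by 1.24 ± 0.19. Slc9c1, the sperm sodium-proton exchanger, fell in TE by 1.09 ± 0.15 and was RNA-carried, with RNA at 108 and 130.4 CPM in WT and 257 and 262 in null, while its footprints overlapped (187 and 172 against 184 and 184). The ion transport count was 2 without any 1 of the 4 RNA libraries and 8 without WT RPF replicate 2.

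Opposed losses were genes with more RNA and fewer footprints in null testes. Crisp2, a cysteine-rich secretory protein of acrosome and tail, had 434 and 491 CPM in WT RNA and 789.7 and 791 in null RNA, but 81.3 and 52.5 in WT RPF and 8.84 and 10.7 in null RPF. RNA rose by 0.77 ± 0.18 and TE fell by 3.53 ± 0.28 (adjusted p = 0.000258). Ms4a14, a 4-span membrane protein gene, went from 227 and 230.0 CPM to 354 and 349.7 in RNA and from 11.3 and 9.47 to 1.52 and 1.94 in footprints, with TE lower by -3.16 ± 0.19. The genotypes did not overlap in either assay in both genes. The phosphatase gene Ppef1 (-3.80 ± 0.30), Tcp11x2 (-3.30 ± 0.29) and Gm382 (-2.52 ± 0.22), all X-linked, were also among those with the largest falls at 5 CPM or more in both assays, and without that minimum the lowest TE change of the 23 genes was -7.74.

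Genes on the X chromosome, which is silenced in meiosis and only partly reactivated afterwards, made up 4.68% of the genes tested that had a RefSeq location (737 of 15733). They were 7.25% of the genes with lower TE (87 of 1200) and 2.34% of those with higher TE (27 of 1156). Among opposed lower genes 8 of 23 were X-linked, and among footprint-carried lower genes 25 of 318. The 737 X-linked genes had a median TE change of -0.11 and a median level of 4.92 CPM in WT RNA, against 17.1 CPM over all genes. These shares are descriptions and were not tested.

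Footprint-carried gains were smaller than the losses, with a median TE change of 0.8, and 57 of the 289 rose more than 2-fold. Aldh3b1, an aldehyde dehydrogenase gene, had 32.2 and 31.9 CPM in WT RNA, 20.3 and 23.6 in null RNA, 6.49 and 7.66 in WT RPF and 15.99 and 15.9 in null RPF. RNA was lower and footprints higher in null, without overlap, and TE rose by 1.73 ± 0.19 (adjusted p = 0.00136). The RNA fall of 0.55 ± 0.13 was itself called (edgeR adjusted p = 0.0114), beside a footprint rise of 1.18 ± 0.14. Inava, an adaptor of innate immune signalling, rose by 1.65 ± 0.21, from 4.52 and 5.22 CPM of footprints to 12.2 and 11.6. Ppp1r14a, an inhibitor of myosin phosphatase, rose by 1.64 ± 0.35, but without any 1 of the RNA libraries the call ended, at adjusted p = 0.0708 and 0.0837 for the pair of WT libraries and 0.0862 and 0.0789 for the null pair.

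Rsph1, a radial spoke head protein of the motile axoneme, had more footprint CPM than Aldh3b1, Inava and Ppp1r14a in both genotypes. It had 697 and 764 CPM in WT RNA, 710.0 and 711 in null RNA, 1810.0 and 2205 in WT RPF and 4442 and 3884 in null RPF. RNA overlapped and footprints did not, and TE rose by 1.09 ± 0.16 (adjusted p = 0.0045). In the axoneme and intraflagellar transport list TE rose for 6 of 27 and fell for 2, against 7.35% and 7.56% of all genes. Footprints carried 5 of the 6, and the exception was Meig1 (RNA-carried, 1.04 ± 0.19, with footprints called lower at -0.43 ± 0.13), whose call ended without WT RNA replicate 2 (0.054), null RNA replicate 1 (0.0716) or null RNA replicate 2 (0.0584), or once the coding length trend was taken out (0.0737). This list's direction depends on scaling: 4 fell and 4 rose with TMM within each assay and 4 fell and 2 rose without TMM, when its median went from 0.1 to -0.05. Without an RNA library the counts were 0 lower and 1 or 2 higher. Tekt4, a tektin of the tail, rose by 0.84 ± 0.13, and its call ended without null RNA replicate 1 (0.0548).

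Opposed gains had less RNA and more footprints. Hypk, a partner of the N-terminal acetylase NatA, had 27.3 and 30.5 CPM in WT RNA, 5.82 and 5.75 in null RNA, 318 and 477 in WT RPF and 691 and 575 in null RPF. TE rose by 2.99 ± 0.29. Osgin1, an oxidative stress response gene, had 211 and 195 CPM in WT RNA, 61.2 and 60.1 in null RNA, 5.87 and 4.77 in WT RPF and 11.3 and 11.8 in null RPF, and TE rose by 2.85 ± 0.17 (adjusted p = 7.82e-05). Both assays moved apart in opposite directions in both genes. Glul, glutamine synthetase, rose by 1.68 ± 0.23 and Mns1, a structural protein of the axoneme, by 1.45 ± 0.18.

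Concordant gains were few and included Leydig cell genes. Tmem79 rose in TE by 2.27 ± 0.24, with footprints at 1.09 and 1.42 CPM in WT and 12.3 and 10.9 in null and RNA at 6.92 and 6.55 in WT and 12.9 and 13.3 in null. Wdfy1 rose by 2.09 ± 0.27. Leydig markers had 5 of 22 higher in TE and 0 lower, 4 of them concordant, with a median TE change of 0.4. The list did not rise as a whole. RNA was called higher for 10 members and lower for 5, against 16.5% and 20.8% of all genes. Footprints were called higher for 12 and lower for 1, against 12% and 13.3%. Insl3, a hormone of Leydig cells, went from 608 and 595 CPM to 1573 and 1580 in RNA and from 1266 and 1404 to 6105 and 6824 in footprints. The genotypes were apart in both assays, more so in footprints, and TE rose by 0.89 ± 0.13 (adjusted p = 0.0038). Fdxr, which feeds electrons to steroid synthesis, was footprint-carried (0.92 ± 0.15), and its call ended without WT RNA replicate 1 (0.0517) or null RNA replicate 1 (0.0614). The Leydig list summed to 1941 to 1944 CPM in WT RNA and 3397 to 3419 in null RNA. In footprints it summed to 4228 to 4250 CPM in WT RPF and 12720 to 13200 in null RPF. Insl3 alone was a large part of each of these sums. The part of more Leydig cells in these values was not tested, and the count of 5 was 1 without WT RNA replicate 1 or null RNA replicate 1, 2 when null RNA replicate 2 was left out, and 3 for replicate 2 of WT RNA or null RPF, and without TMM.

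RNA-carried losses had more RNA in null testes and a footprint change of less than 1.5-fold, which could still be called. Prkx, an X-linked protein kinase, had 8.40 and 8.34 CPM in WT RNA and 41.1 and 37.9 in null RNA, against 15.6 and 15.5 in WT RPF and 13.3 and 13.9 in null RPF. RNA rose by 2.24 ± 0.12 while footprints changed by -0.19 ± 0.11 and were not called, so that TE fell by 2.43 ± 0.16 (adjusted p = 0.000133). Gm9 (-2.27 ± 0.29), Gm5346 (-1.92 ± 0.24) and the zinc finger gene Zfp850 (-1.87 ± 0.35) were named as well, the last losing its call when WT RNA replicate 1 (0.0648), null RNA replicate 1 (0.0552) or its replicate 2 (0.0511) was left out. Gm5346 also had lower footprints, at 7.67 and 7.77 CPM in WT and 4.64 and 5.76 in null (-0.54 ± 0.15, adjusted p = 0.0328). The Y-linked zinc finger gene Zfy2 fell by 1.71 ± 0.28, with an adjusted p of 0.0554 without WT RNA replicate 1.

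Several regulators and meiotic genes were in this class. Pum2, an RNA-binding repressor of translation, had 89.0 and 93.1 CPM in WT RNA and 164 and 169.6 in null RNA while its footprint change of -0.16 was not called, and its TE fell by 1.03 ± 0.13. Psme4, the activator of the spermatid proteasome, fell by 1.02 ± 0.13 and the kinetochore gene Cenpf by 0.99 ± 0.15. Of 33 meiotic prophase genes TE fell for 7 and rose for 1, against 7.56% and 7.35% of all genes, and RNA carried 6 of the 7. Terb1, which tethers telomeres to the nuclear envelope, fell by 1.02 ± 0.19 and Sycp2, of the synaptonemal complex, by 0.87 ± 0.16, whereas Syce3, of the same complex, rose by 1.16 ± 0.17. The prophase count was 1 lower without WT RNA replicate 1, 0 without either null RNA library and 4 without WT RNA replicate 2 or null RPF replicate 1, and Terb1 and Sycp2 lost their calls without null RNA replicate 1 (0.0621 and 0.0659) or 2 (0.0584 and 0.0562), Sycp2 also without WT RNA replicate 1 (0.0577). In the meiotic division list 5 of 25 fell and 3 rose, and without WT RNA replicate 1 or a null RNA library 1 fell and 0 rose. Its balance also turned, to 7 lower and 1 higher without TMM and 3 and 4 after removal of the length trend.

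RNA-carried gains had less RNA in null testes and a footprint change of less than 1.5-fold, which could also be called. Ndufa13, a subunit of respiratory complex I, had 84.6 and 81.2 CPM in WT RNA and 20.1 and 17.8 in null RNA, against 191 and 235 in WT RPF and 222 and 208 in null RPF. RNA separated the genotypes and footprints overlapped, and TE rose by 2.14 ± 0.18 (adjusted p = 0.000328) for a footprint change of 0.01 ± 0.12. Atp5k, of the ATP synthase, rose by 3.04 ± 0.50, Gm9844 by 2.84 ± 0.38 and Prr13 by 2.21 ± 0.33. In germ cell energy metabolism TE rose for 6 of 23 and fell for 2, against 7.35% and 7.56% of all genes. RNA carried 5 of the 6. Gpi1, of glycolysis, had 546 and 515 CPM in WT RNA and 169.8 and 179 in null RNA against 98.8 and 95.2 in WT RPF and 64.1 and 71.4 in null RPF. Its footprints fell (-0.52 ± 0.09, adjusted p = 0.00462) by less than its RNA (-1.60 ± 0.10), and TE rose by 1.09 ± 0.13. Without null RNA replicate 1 the count of 6 was 3.

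Most Sertoli, myoid and histone genes with a higher TE were RNA-carried too. Over all genes TE rose for 7.35% and fell for 7.56%. Of 29 Sertoli markers 8 rose in TE and 0 fell, and RNA carried 5. Sox9, the transcription factor of Sertoli cells, had 53.7 and 46.0 CPM in WT RNA and 19.5 and 14.7 in null RNA against 30.4 and 30.5 in WT RPF and 38.9 and 36.1 in null RPF. RNA was lower and footprints slightly higher in null, the latter not called (0.30 ± 0.14), and TE rose by 1.84 ± 0.21. Aard rose by 1.52 ± 0.20. The Sertoli list summed to 3470.0 to 3609 CPM in WT RNA and 2803 to 2820.0 in null RNA and its part in the result was not tested. The count was 3 without WT RNA replicate 1 or null RNA replicate 1, and 4 without replicate 2 of WT RNA, null RNA or null RPF and without TMM. Without WT RPF or null RPF replicate 2, after removal of the length trend, or with DESeq2, 1 Sertoli gene was called lower. Of 20 myoid and smooth muscle markers 4 rose in TE and 0 fell, among them the contractile genes Tpm2 (1.69 ± 0.20) and Smtn (1.35 ± 0.19). The list fell in both assays, with medians of -0.95 for RNA and -0.48 for footprints. RNA was called lower for 16 and higher for 0, against 20.8% and 16.5% of all genes. Footprints were called lower for 11 and higher for 0, against 13.3% and 12%. In TE 1 myoid gene was called lower with TMM within each assay or without TMM.

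Of 22 replication-dependent histone genes TE rose for 7 and fell for 0, against 7.35% and 7.56% of all genes. The medians of the list were 0.82 for TE, -1.26 for RNA and -0.47 for footprints. Hist1h2aa, a testis variant of H2A that this list holds beside the replication histones, rose by 1.65 ± 0.17. It went from 134 and 131 CPM to 38.8 and 40.5 in RNA, with 327 and 278 against 261 and 307 in footprints. These genes are near-identical and lack long poly(A) tails, so their counts are uncertain, and the count of 7 was 1 without any 1 of the RNA libraries, 2 without null RPF replicate 2, 14 without WT RPF replicate 1, 2 without TMM and 3 after removal of the length trend. Beside these counts of 0, edgeR at an unadjusted p under 0.05 gave 1 Sertoli and 1 myoid gene lower and 0 for Leydig, ribosomal protein and histone genes. DESeq2 gave 1, 1, 0, 0 and 0 and limma-voom 0, 1, 0, 0 and 0. In the other direction stored mRNAs, acrosome, ion transport, kinase and protease and ADAM genes had 0 higher at an unadjusted p under 0.05 in edgeR and 0 in DESeq2 and limma-voom.

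The largest single complex among the lists was the ribosome. Of 84 cytosolic ribosomal protein genes TE rose for 18 and fell for 0, against 7.35% of all genes, with medians of 0.37 for TE, -0.48 for RNA and -0.05 for footprints. RNA carried 17 of the 18, and Fau was footprint-carried. Rpl19 had 240.0 and 237 CPM in WT RNA and 95.4 and 95.6 in null RNA against 139 and 179 in WT RPF and 172 and 175 in null RPF. RNA separated the genotypes and footprints overlapped, and TE rose by 1.45 ± 0.17 (adjusted p = 0.00179). Rpl36a rose by 1.65 ± 0.25. The count was 9 or 7 when WT RNA replicate 1 or 2 was left out, 3 or 6 for null RNA replicate 1 or 2, 35 (and 1 lower) without WT RPF replicate 2, and 11 after removal of the length trend.

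Ribosomal protein mRNAs are controlled together through a run of pyrimidines at their start, the terminal oligopyrimidine motif. Windows of 30 bases around the RefSeq start site (GRCm38.p6, 15 before and 15 after) were searched on the sense strand for runs of at least 7 C or T. A gene counted if any of its start sites had a run, and a site with a run is shown. The run could lie anywhere in the window, and that of Rpl19 lies wholly before the start site. The 6 called genes with such a run, picked after their values were seen, are shown because they rose in TE, with the run in capitals, 5′ to 3′.
Rpl19, chr11:98026909-98026938, plus strand: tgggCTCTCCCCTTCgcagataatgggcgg
Rps21, chr2:180257364-180257393, plus strand: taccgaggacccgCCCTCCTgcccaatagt
Rps18, chr17:33955651-33955680, minus strand: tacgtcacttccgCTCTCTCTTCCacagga
Rps9, chr7:3704026-3704055, plus strand: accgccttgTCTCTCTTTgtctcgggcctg
Rps10, chr17:27635230-27635259, minus strand: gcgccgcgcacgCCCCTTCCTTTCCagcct
Fau, chr19:6057932-6057961, plus strand: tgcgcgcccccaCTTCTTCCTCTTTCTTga
Of the called ribosomal protein genes with an entry, 6 of 11 had a run (54.5%), as did 29 of 52 not called (55.8%), 35 of 63 of the list (55.6%) and 2676 of 12285 of all genes tested (21.8%). The shares of called and not called members thus lay close together. The window's letters are a description and say nothing of regulation.

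Other parts of the protein machinery had more members higher than lower in TE, most of them RNA-carried. Over all genes the shares were 7.35% higher and 7.56% lower. Translation factors had 9 of 54 higher and 3 lower, with Eif4h, a helper of the initiation helicase, at 1.19 ± 0.23 and Eef1g at 1.18 ± 0.29. Without any 1 of the RNA libraries 0 of them were higher, and 4 were without null RPF replicate 1 or without TMM. Eif4h and Eef1g lost their calls without any 1 of the RNA libraries, with adjusted p-values up to 0.0688 and 0.117. Proteasome genes had 8 of 40 higher and 1 lower, among them Psmb2 (0.73 ± 0.13) and Psme1 (0.88 ± 0.21), with 0 higher without WT RNA replicate 1 or a null RNA library, 2 when WT RNA replicate 2 was left out, 4 for null RPF replicate 2 or no TMM, and 5 with TMM within each assay. Psmb2 and Psme1 lost their calls when WT RNA replicate 1 or a null RNA library was left out, with adjusted p-values up to 0.0688 and 0.117. Chaperones split, 6 of 29 lower and 4 higher, Hsp90ab1 rising by 0.90 ± 0.13.

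**Figure D4:**
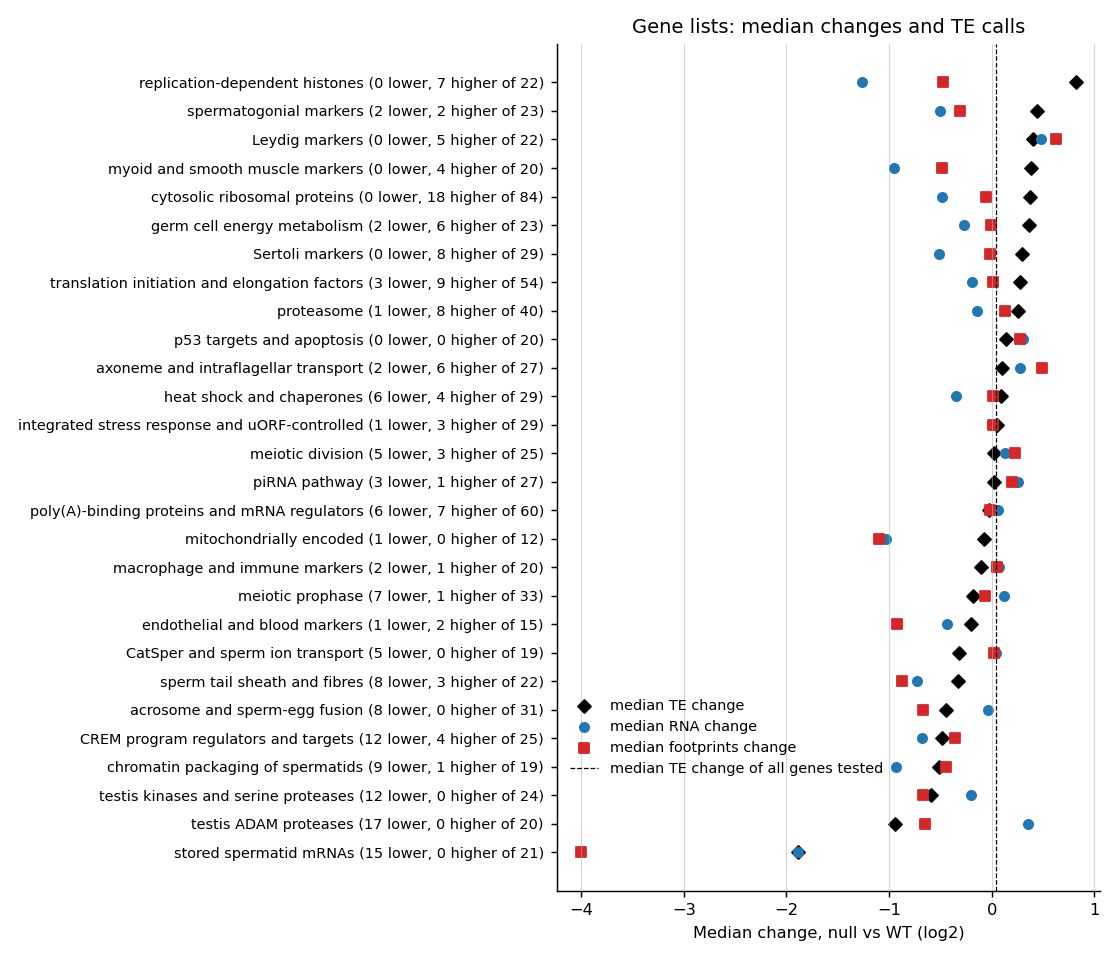
Median change (x, log2, null versus WT) of TE (black), RNA (blue) and footprints (red) in each of the 28 gene lists (y, with the members called lower and higher in TE of those tested), and the median TE change of all genes as a dashed line at 0.04. Stored spermatid mRNAs lie lowest, with medians of -1.89 for TE and -4.0 for footprints, and replication-dependent histones highest at 0.82.

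RNA-carried calls followed coding length and footprint-carried calls did so less. RNA-carried higher genes were 7.48% of the genes in the shortest of 5 coding length bins (75 to 705 nt) and 3.18% of those in the longest (from 2502 nt). RNA-carried lower genes went the other way, from 1.37% to 6.34%. The median coding length was 1068 nt for RNA-carried higher genes and 2067 nt for lower ones, against 1359 nt over all genes, and 1542 and 1419 nt for footprint-carried higher and lower genes. After removal of the length trend from each library the RNA-carried shares in the shortest and longest bins became 3.57% and 4.31% for higher and 2.73% and 5.21% for lower. The median RNA change itself went from -0.27 in the shortest bin to 0.08 in the longest, and that of footprints from -0.06 to 0.06. Insert length of the RNA libraries, given above, differed between the genotypes as well, and the part of either in these calls was not tested.

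**Figure D5:**
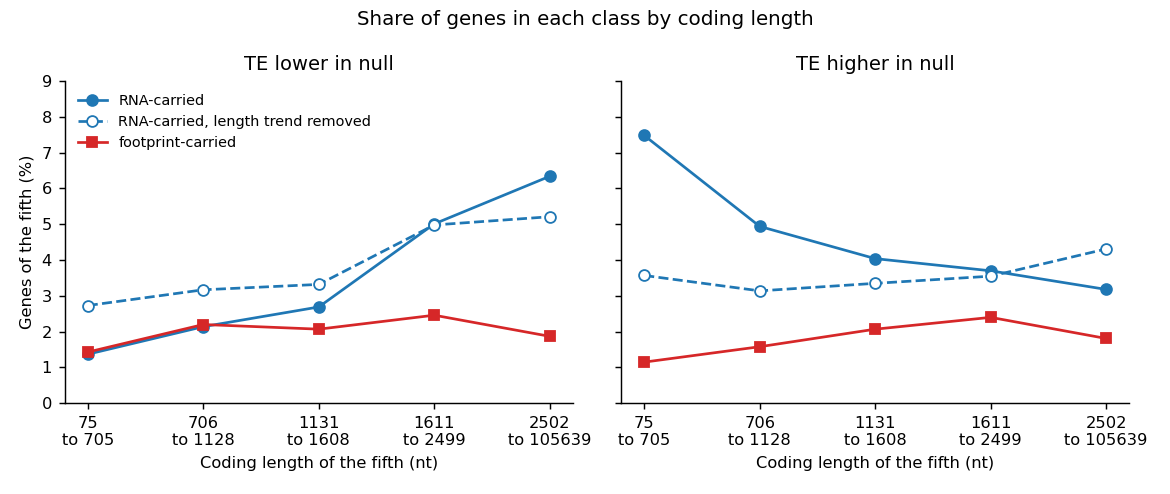
Share of genes (y, %) in the RNA-carried (blue) and footprint-carried (red) classes by bin of coding length (x, nt), for TE lower (left) and higher (right). RNA-carried higher genes go from 7.48% to 3.18% and RNA-carried lower genes from 1.37% to 6.34%; open circles show them with the length trend removed.

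Many genes moved in both assays without a call in TE. RNA and footprints were called in the same direction for 937 lower genes (5.84%) and 881 higher ones (5.49%). Their median RNA and footprint changes were -1.07 and -1.04 for the lower genes and 0.89 and 0.87 for the higher ones. AY358078 had 0.940 and 0.968 CPM in WT RNA, 16.8 and 14.6 in null RNA, 1.15 and 1.53 in WT RPF and 31.4 and 27.3 in null RPF. Both assays rose alike and its TE change was 0.44 ± 0.32. Ttc24 fell by 3.67 ± 0.17 in RNA and 4.72 ± 0.22 in footprints, with a TE change of -1.05 ± 0.31 that missed the threshold (adjusted p = 0.0546).

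For the piRNA pathway, of 27 members, Piwil1 among them, TE fell for 3 and rose for 1, against 7.56% and 7.35% of all genes. RNA rose for 13 and fell for 2, against 16.5% and 20.8% of all genes, and footprints rose for 12 and fell for 3, against 12% and 13.3%. Rnf17, a Tudor protein of germ granules, fell in TE by 0.88 ± 0.20, Tex15 by 0.58 ± 0.15, and Adad2 rose by 0.56 ± 0.13. These calls ended in at least 5 of the 18 alternatives each, with 0 lower without WT RNA replicate 1 or a null RNA library and 5 lower and 0 higher without TMM. Poly(A)-binding and other mRNA regulators had 6 of 60 lower and 7 higher. Spermatogonial markers had 2 of 23 in each direction, immune markers 2 of 20 lower and 1 higher, and endothelial and blood markers 1 of 15 lower and 2 higher. Stress response genes had 1 of 29 lower and 3 higher, 0 and 0 without any 1 RNA library, and 3 and 0 without TMM. With so few calls beside 7.56% and 7.35% of all genes, nothing is read from these lists. Of 12 mitochondrially encoded genes, which are read by another ribosome, 4 were at 0 counts in some library. RNA was called lower for 9 and higher for 1, against 20.8% and 16.5% of all genes, with a median of -1.03. Footprints were called lower for 6 and higher for 0, against 13.3% and 12%, with a median of -1.1. Among these 12 only mt-Co1 was called in TE (-0.59 ± 0.13). That call ended when WT RNA replicate 1 or either null RNA library was left out. Of 20 p53 and apoptosis genes 0 were called in TE by edgeR, 4 were higher at an unadjusted p under 0.05, and DESeq2 and limma-voom each called 1 higher.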

How the data were processed

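Ribosome-protected fragments and total RNA of whole testes were measured in 8 libraries, 2 per genotype and assay. The deposited tables hold fragment counts per transcript (99671 transcripts, 21949 genes) with coding lengths in nt, and the authors' log2 fold changes of translational efficiency. Per the submitters' processing notes, GRCm38 was used with STAR 2.5.0a, Bowtie 1.2.2 and cutadapt 2.5, without roles. For the counting tool, its strand setting and multiply mapping fragments the sources used here give nothing.

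Each gene took the transcript of highest mean count. Genes passing edgeR's filterByExpr (minimum count 10, minimum total 15) numbered 16051. Counts were scaled by TMM over the 8 libraries and fitted with edgeR 4.0.16 quasi-likelihood in R 4.3.3 with 1 mean per group, which leaves 4 residual degrees of freedom; SE is the change divided by the square root of F. The median SE of TE was 0.179 for 8630 genes at 10 CPM or more. On simulated counts (16051 genes) 18% of 2-fold and 81% of 4-fold TE changes were recovered, with 6 unchanged genes called. Every simulated gene had the same dispersion, set beforehand and not estimated from these libraries. The recovery and the false calls hold for that spread only and do not describe these data.

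The members and lists were chosen with earlier results of these data known. Named genes were Piwil1, the 6 largest TE changes per class and direction (at least 5 CPM in a group of each assay and the same sign in both replicates), 4 parallel genes per direction and the 2 largest per list and direction. Alternatives covered scaling, filters, transcript choice, DESeq2 1.42.0, limma 3.58.1, a length trend, a replicate block and each library left out. Samples with the same replicate number did not deviate together across assays (correlations from -0.015 to 0.006) or between WT and null RNA (0.022), so no pairing was assumed. Between WT and null RPF the correlation was -0.546. WT RPF replicate 1 thus deviated with null RPF replicate 2, the deeper libraries (28054418 and 28334620 counts), and the shallower libraries deviated together. The main fit leaves this shared deviation in its spread, and a block crossed this way is given below.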

Additional observations from a re-analysis of the deposited data

How the results depend on the processing

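Of the named genes called in TE 48 lost the call in some alternative and 0 changed sign. At an adjusted p under 0.01, TE was lower for 445 genes and higher for 294. Without TMM, TE was higher for 679, with 157 footprint-carried, 430 RNA-carried, 11 concordant, 9 opposed and 28 attenuated higher genes and 38 opposed lower. RNA libraries fitted alone called 4531 higher in RNA, and RPF libraries fitted alone called 1159 lower and 826 higher. limma-voom called 1286 higher in RPF. A tighter bound for the classes gave 194 and 182 footprint-carried, 94 and 100 opposed and 88 and 77 attenuated genes (lower and higher), and removing the length trend gave 9 opposed higher genes. The replicate block gave 688 lower and 549 higher in TE, 176 and 112 footprint-carried, 277 and 375 RNA-carried, 24 and 19 attenuated and 10 concordant higher genes; the numbers share only a name, so this is no paired result. With the block crossed between the RPF groups, chosen after seeing the data, the TE counts were 1591 and 1690. Without the shallower footprint library of each genotype, also chosen after seeing the data, they were 2780 and 3347, with the spread taken from the RNA pairs alone. The causes were not tested.

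Leaving out 1 library at a time gave these lowest and highest counts. TE was lower for 376 to 1726 and higher for 226 to 1909, RNA lower for 1757 to 4040 and higher for 1429 to 3545, and RPF lower for 1464 to 2667 and higher for 1378 to 2504. Footprint-carried genes ranged from 101 to 557 lower and 34 to 635 higher, RNA-carried from 112 to 746 and 161 to 974, concordant from 124 to 257 and 4 to 30, opposed from 9 to 39 and 5 to 76, attenuated from 13 to 70 and 10 to 69, and parallel from 694 to 1064 and 606 to 971. An arm left with 1 library is assumed to vary like the other groups.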
